A study of Mus musculus with 4 samples.

Results

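The unstimulated, vehicle-treated culture of mouse synovial fibroblasts is described here from 1 array of the 4 in the series. It was chosen by its title, and no array was compared with another. Per the labels, the cells came from the knee joints of naïve male DBA/1J mice aged 8 to 12 weeks, were passaged 3 to 4 times and were kept in RPMI1640 medium with 1% heat-inactivated FCS. The dish received vehicle alone, where the other 3 dishes received IL-1beta, alone, with indomethacin, or with indomethacin and iloprost. Cells of all dishes were collected after 6 h. The labels state neither the number of mice nor what the vehicle was, and they name no cell sort. The dish is a single sample, so its values carry no replicate error and no test was made.

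Synovial fibroblasts form the lining and the supporting layer of the joint capsule. They make the collagenous matrix, and they release hyaluronan and the lubricant proteoglycan 4 into the joint fluid. Tissue macrophages share the lining with them, clear debris and sense microbes. Fibroblasts carry receptors for IL-1, TNF and the IL-6 family, through which they take up inflammatory signals and answer with chemokines and matrix proteases.

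Each value is a signal, the brightness of 1 probe set, which is a group of probes for 1 transcript. Signals ran from 0 to 7289. A floor was set at 35.2, the 50th percentile of the 22690 probe sets, and a gene was taken at its brightest probe set. Of 12393 genes, 6712 were above the floor, or 54.2%, and the median gene had a signal of 45.6. As a background level, 50 genes restricted to tissues such as liver, brain, pancreas and testis were read in the same way. Of these, 1 was above the floor, the myelin gene Mbp at 39.5 by 1 of its 8 probe sets, and their median was 3.35. Probe sets differ in brightness for the same amount of RNA. Among 3513 genes with several probe sets and the brightest above the floor, the brightest exceeded the dimmest by a median of 3.54-fold, and all probe sets were above the floor in 51.0%. The order of signals is therefore not an order of transcript numbers.

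Added bacterial and phage control transcripts mark the range of the array. They gave signals of 71.3 to 120 for BioB, 250.2 to 400.5 for BioC, 653 to 1834 for BioD and 2551 to 5600 for Cre. Of the other bacterial control probe sets, those for Dap read 109 to 288 and those for Thr 37.1 to 78.8. Those for Phe, at 16.6 to 46.4, lay on both sides of the floor of 35.2. All for Lys, at 14.8 to 33.3, and Trpn, at 0.2 to 4.6, were below it. The control probe sets for the 3′ and 5′ ends of the actin gene Actb read 6982 and 5869, a ratio of 1.19. Those for Gapdh read 3928 and 5323, a ratio of 0.738. Dimmer controls had higher ratios, with Tfrc at 112 and 52.6, a ratio of 2.13. The ratio was 1.35 for 18S RNA and 1.32 for Pc, the latter from signals below the floor.

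The brightest genes came from the matrix, the cytoskeleton, the ribosome, the lysosome and the interferon response. Control probe sets and those naming no gene or several were left out of this order, and some of them were as bright, up to 6982 and 6841. The 30 brightest lay between 4601 and 7289, a 1.58-fold span near the top of the scale. Galectin 1, a sugar-binding protein secreted by mesenchymal cells, led with Lgals1 at 7289. The actin-binding thymosin gene Tmsb4x followed at 6909 and the iron-storage ferritin gene Fth1 at 6799. Matrix genes held 5 of the 30 places. They were Sparc, a collagen-binding glycoprotein, at 6609, Col3a1 at 6379, Col1a2 at 5698, the collagen cross-linking oxidase gene Lox at 5272 and fibronectin, Fn1, at 4728. Lysozyme genes stood beside them, with Lyz1 at 6733 and the macrophage lysozyme gene Lyz2 at 5606. These paralogs are nearly identical, so their probe sets may share transcripts, and 1 of the 3 for Lyz1 read 9.6. The lysosomal protease gene Ctsb was at 5121.

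**Figure D1:**
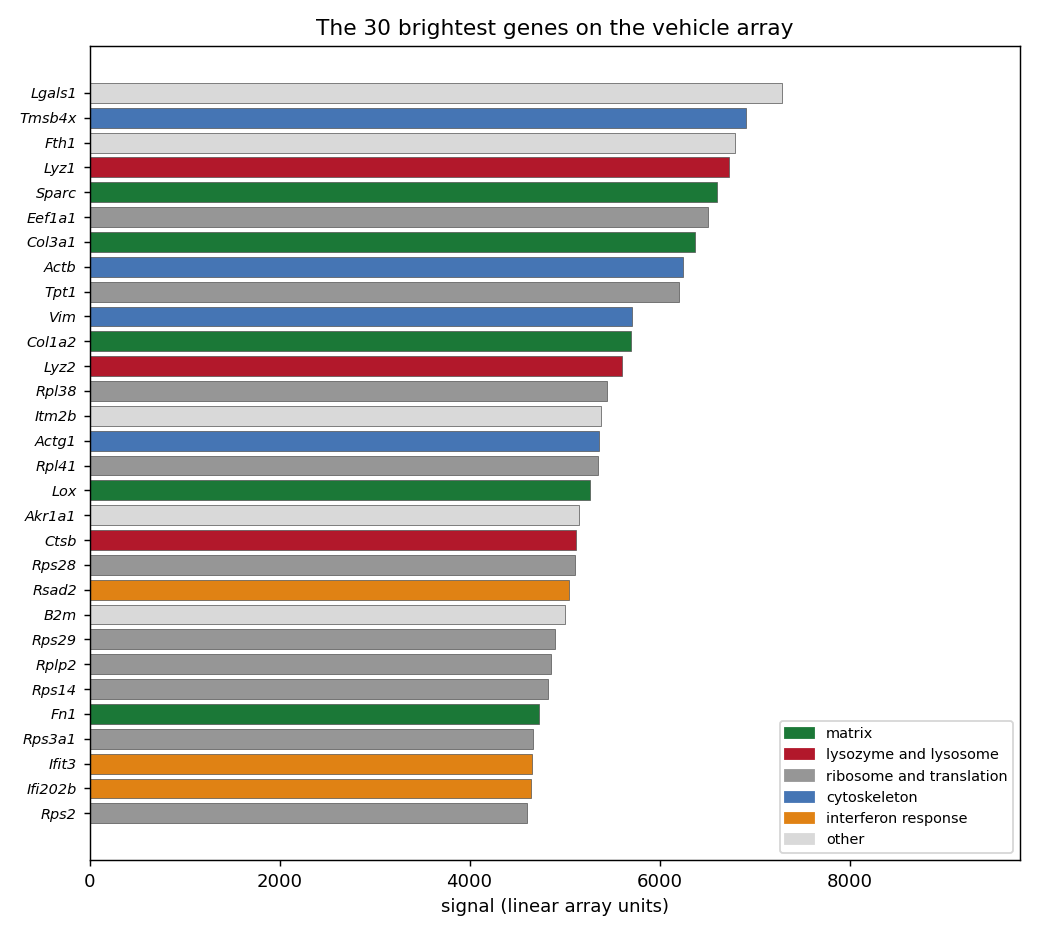
Bars give the signal, in linear array units, of the 30 genes with the highest signals in the vehicle dish, coloured by role. Lgals1 stands at 7289 and Rps2 at 4601, with matrix, lysozyme and interferon-response genes among ribosomal ones.

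Genes of the interferon response were also among the 30. Rsad2, which encodes the antiviral enzyme viperin, was at 5042 with all 3 of its probe sets at 2676 or more. The interferon-induced gene Ifit3 was at 4662 and Ifi202b, an interferon-inducible DNA-binding protein gene, at 4652. B2m, the light chain of MHC class I, was at 5002. Ribosomal protein genes took 8 of the 30 places and 30 of the brightest 100, out of 48 measured. The brightest 100 genes, at 2918 or above, carried 17.5% of the summed signal of all genes.

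Of 20 fibroblast identity genes, 19 were above the floor and 10 read 1000 or more, with a median signal of 1049, where 54.2% of all genes were above it with a median of 45.6. Col1a1 was at 2664, the filament gene Vim at 5712 and S100a4 at 2612. The receptor gene Pdgfra, which marks mesenchymal cells, read 1524, and Pdgfrb 751. Thy1, a marker of the sublining layer, was at 147 and the surface protease gene Fap at 54.6. The exception was the limb mesenchyme factor Twist1 at 31.7. Of 13 genes linked to the synovial lining or sublining, 8 were above the floor. Prg4, which encodes the joint lubricant, was at 449, the lining cadherin gene Cdh11 at 1071, the adhesion gene Vcam1 at 2995 and the hyaluronan receptor gene Cd44 at 1772. The hyaluronan precursor enzyme gene Ugdh was at 581 and the synthase gene Has2 at 125. Has1, Cd34, Tspan15, Erbb3 and the lining macrophage gene Vsig4 were not above the floor, at 23.2, 15.8, 7.3, 3.0 and 0.8.

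Collagen chains ranged from 0.3 to 6379. Of 25 chains in the list, 17 were above the floor with a median of 244, and of all 36 measured chains, picked by symbol, 18 were, or 50%, with a median of 31.1, against 54.2% of all genes. The fibrillar chains Col5a2 and Col5a1 were at 4563 and 2071, and the beaded-filament chains Col6a2 and Col6a1 at 1605 and 1304. A middle group held Col4a1 at 256.5, Col14a1 at 251, Col12a1 and Col18a1 at 244 and Col8a1 at 110. Not above the floor were Col4a3 at 13.2 and Col4a4 at 1.3, chains of kidney and lung basement membranes, Col7a1 of skin anchoring fibrils at 6.8, Col11a2 at 15.7 and Col13a1 at 6.1. Genes that process collagen were above the floor in 14 of 15 cases, with Pcolce, which speeds removal of the procollagen tail, at 2096 and the chaperone gene Serpinh1 at 1788. Of 41 genes for other matrix proteins, 35 were above the floor. Bgn, a small proteoglycan, was at 4378, Postn at 3039 and the protease inhibitor genes Timp2 and Timp1 at 2897 and 2424. Elastin, Eln, was at 21.7 and Fbn2 at 1.1.

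Against 54.2% of all genes, proteases that cut matrix were above the floor in 21 of 26 cases. The brightest 5 were lysosomal cathepsins, with Ctsz at 3983, Ctsl at 2928, Ctsd at 2621 and Ctss at 2528 after Ctsb. Mmp14, the membrane-bound activator of gelatinase A, was at 1772. The stromelysin gene Mmp3, the collagenase gene Mmp13 and the gelatinase genes Mmp9 and Mmp2 were at 959, 759, 573 and 564, so these were above the floor without IL-1beta. Mmp7, Mmp8, Mmp10 and Mmp16 and the urokinase gene Plau were not, at 11.2, 1.0, 14.6, 16.3 and 12.3. Contractile genes of the myofibroblast type were above the floor in 12 of 16 cases. Cald1 was at 2504, smooth muscle actin, Acta2, at 2242 by 1 of 2 probe sets, and Tagln at 1144. The smooth muscle myosin gene Myh11 was at 4.4 and desmin, Des, at 16.1.

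Sex and limb genes were read as a check of the labels, where 54.2% of all genes were above the floor. Of 4 sex-linked genes, the Y-linked Eif2s3y, Uty and Kdm5d were above the floor at 128, 76.6 and 39.4, the last by 1 of 3 probe sets, and the X-inactivation transcript Xist was at 9.1 with none of its 3 probe sets above. This matches the male label. Of 22 limb position genes, 6 were above the floor, or 27.3%, with a median of 12.85. The limb mesenchyme factors Prrx1 and Prrx2 were at 437 and 161 and Twist2 at 70.1. Pitx1, the factor that sets hindlimb identity, was at 36.0, with 1 of 2 probe sets just above the floor. Tbx4 of the hindlimb and Tbx5 of the forelimb were not above it, at 8.7 and 7.6. Of 10 Hox genes measured in this list, Hoxa9, by 1 of 2 probe sets, and Hoxc8 were above the floor at 62.1 and 60.1. The others were Hoxc9 at 33.3, Hoxa10 at 20.7, Hoxa11 at 10.6, Hoxa13 at 5.9, Hoxd9 at 3.8, Hoxd10 at 1.7, and Hoxd11 and Hoxd13 at 0.4. Barx1, Shox2, Meis2, Meis1 and Gdf5 read 19.5, 13.4, 12.3, 0.9 and 0.8, none above the floor.

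Macrophage markers were also above the floor in a culture labelled as fibroblasts. Of 32 macrophage markers, 28 were above the floor, against 54.2% of all genes. The markers had a median signal of 1376 and a range of 4.0 to 6733 over all 32. The highest was Lyz1, whose probe sets may share transcripts with the macrophage lysozyme gene Lyz2. The CSF-1 receptor gene Csf1r, on which macrophages depend for survival, was at 4015 with all 3 probe sets above the floor. The LPS co-receptor gene Cd14 was at 4308, the complement C1q gene C1qb at 2786 and the F4/80 gene Adgre1 at 2088. The lysosomal marker gene Cd68 was at 1731, the pan-leukocyte gene Ptprc at 1325 and Spi1, which encodes the myeloid factor PU.1, at 801. Not above the floor were the haemoglobin scavenger receptor gene Cd163 at 4.0, the monocyte receptor gene Ccr2 at 16.9, the uptake receptor gene Mertk at 24.5 and Adgre4 at 14.9. In a bulk sample, fewer cells of a type and less RNA per cell cannot be told apart, and neither can the cell type that carried a given transcript.

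**Figure D2:**
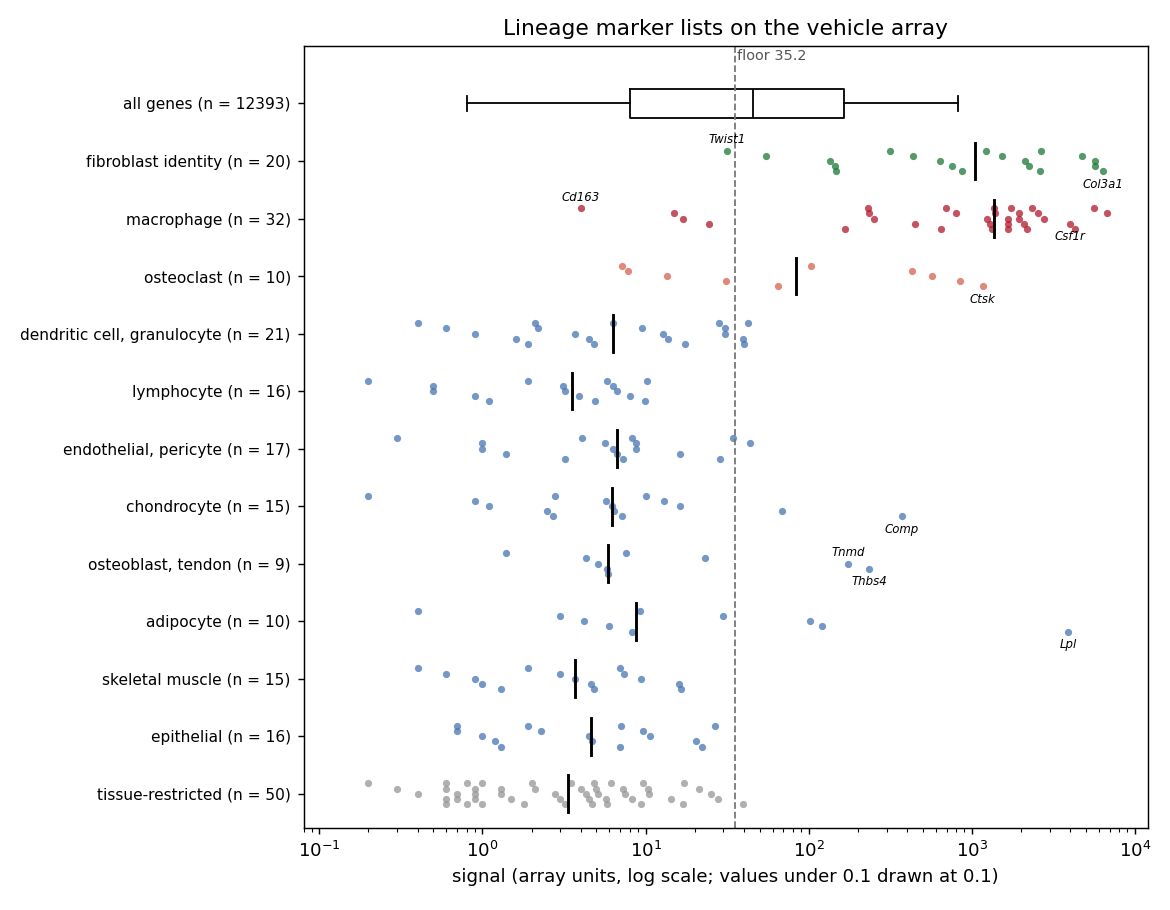
Points are genes of each lineage list, placed by signal on a log axis, with a black bar at the list median and a dashed line at the floor of 35.2. The box for all genes spans the 25th to 75th percentile and its whiskers the 5th to 95th. The fibroblast and macrophage lists lie mostly right of the floor, with medians of 1049 and 1376, and the lymphocyte, muscle and epithelial lists lie wholly left of it.

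Of 10 osteoclast-associated genes 6 were above the floor, near the 54.2% of all genes. The collagen-degrading cathepsin gene Ctsk was at 1163, Trem2 at 850 by 1 of 2 probe sets, and the phosphatase gene Acp5 at 427. Mmp9 was at 573, Nfatc1 at 103 and the RANK gene Tnfrsf11a at 64.4. The other 4 were the calcitonin receptor gene Calcr at 7.8, Itgb3 at 13.6, Ocstamp at 31.3 and Oscar at 7.2.

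Most markers of the other lineages were not above the floor. Over all these lists together, 11 of 119 genes were above the floor, against 54.2% of all genes. The count was 6 with a floor of 80.9 and 22 with one of 16.9, the 90th percentile of the tissue-restricted genes. None of 16 lymphocyte markers was, and the brightest, Zap70, read 10.2. The T-cell receptor chain gene Cd3e was at 3.1 and the B-cell receptor chain gene Cd79a at 6.3. No skeletal muscle marker of 15 and no epithelial marker of 16 was above the floor, with highest signals of 16.6 for Acta1 and 26.6 for Krt5. Of 17 endothelial and pericyte markers, the pericyte gene Cspg4 was above it at 43.8, and Cdh5, Pecam1 and Vwf read 5.6, 1.4 and 1.0. Of 21 dendritic cell and granulocyte markers, 3 were just above it, Hdc at 42.4, Csf3r at 40.3 and Cd207 at 39.7, while S100a8 was at 12.7 and Itgax at 17.4.

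Some joint tissue genes stood out from their lists. Among 15 chondrocyte markers, 2 were above the floor, against 54.2% of all genes. Comp, a matrix protein that tendon and synovium also make, was at 372 and Col11a1 at 69.0. The cartilage factor Sox9 was at 16.2, aggrecan, Acan, at 10.0 and cartilage collagen Col2a1 at 2.7. Among 9 osteoblast and tendon markers, 2 were above the floor, Thbs4 at 235 and the tendon gene Tnmd at 174. The tendon factor Scx was at 1.4 and the bone factor Sp7 at 5.9. Among 10 adipocyte markers, 3 were above the floor, or 30%, also below the 54.2% of all genes. They were the lipoprotein lipase gene Lpl at 3902, which macrophages also express, Cebpa at 121, and Fabp4 at 101 by 1 of 4 probe sets. The adipocyte genes Adipoq and Pparg were at 4.2 and 9.2.

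Receptors were counted to see which signals the resting culture could receive. Of 163 genes in the receptor lists, which also hold the integrin ligand genes Vcam1 and Icam1, 89 were above the floor. This was close to the 54.2% of all genes. The share was 26 of 32 for cytokine receptors outside the IL-1 family, with a median of 202, but 2 of 7 in the IL-1 and IL-18 receptor family, with a median of 17.7. Il1r1, which encodes the signalling receptor of IL-1, was at 102 and its partner Il1rap at 71.3. The decoy receptor gene Il1r2 was at 0.6, Il18r1 at 0.4, Il18rap at 11.3, Sigirr at 17.7 and Il1rl2 at 29.5. The antagonist gene Il1rn, which encodes a blocker of this receptor, was at 1270 with all 3 of its probe sets above the floor.

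Receptors of the IL-6, TNF and interferon families were above the floor in most cases. After Csf1r, the shared chain gene Il6st was at 929, Osmr at 866, Il10rb at 695, the TNF receptor gene Tnfrsf1a at 662 and the interferon receptor chain gene Ifnar2 at 650. The IL-6 binding chain gene Il6ra was not above it, at 32.6, nor were Epor at 19.7, Il13ra2 at 23, Il7r at 17.6 and the leptin receptor gene Lepr at 6.4.

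Growth factor receptors were above the floor in 19 of 36 cases, or 52.8%, near the 54.2% of all genes. After the PDGF receptors came the TGF-β receptor genes Tgfbr2 and Tgfbr1 at 624 and 433, the GAS6 receptor gene Axl at 522 and the collagen receptor gene Ddr1 at 512. Only some probe sets were above the floor for Tgfbr2 (2 of 3), Axl (1 of 2) and Ddr1 (2 of 8). Not above the floor were Bmpr2 at 27.7, Erbb2 at 21.8, Erbb3 at 3.0, Fgfr2 at 31.1 and Fgfr3 at 12.3. Integrins, matrix receptors and the adhesion molecules listed with them were above it in 16 of 26 cases. Among these were Cd47 at 1575 and the αv chain gene Itgav at 1255. Vcam1 and Icam1, at 2995 and 1330, were counted here too, though they encode ligands of integrins. The leukocyte chain gene Itgb2 was at 1131, while Itga2, Itga3, Itga7 and Itgal were at 11.8, 7.7, 6.6 and 31.7.

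Prostanoid genes bear on the drugs used elsewhere in the series. Against 54.2% of all genes, 3 of 9 prostanoid receptors were above the floor. They were the prostaglandin E receptor gene Ptger4 at 346, by 1 of 2 probe sets, the prostacyclin receptor gene Ptgir at 159 and the prostaglandin F receptor gene Ptgfr at 109. The other 6 read 17.8 for Ptger2, 5.4 for Ptger3, 3.8 for the thromboxane receptor gene Tbxa2r, 1.0 for Ptger1, 0.9 for Ptgdr and 0.7 for Ptgdr2. On the side of synthesis, the phospholipase gene Pla2g4a was at 512, the inducible cyclooxygenase gene Ptgs2 at 457, and the synthase genes Ptges, Tbxas1, Ptgis, Hpgds and Ptges2 at 271, 101, 96.8, 80.7 and 50.1. Alox5ap, which presents arachidonic acid for leukotriene synthesis, was at 872. The breakdown enzyme gene Hpgd was at 15.2, Ptgds at 1.7, Alox15 at 21.7 and Alox12 at 4.1, none above the floor.

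**Figure D3:**
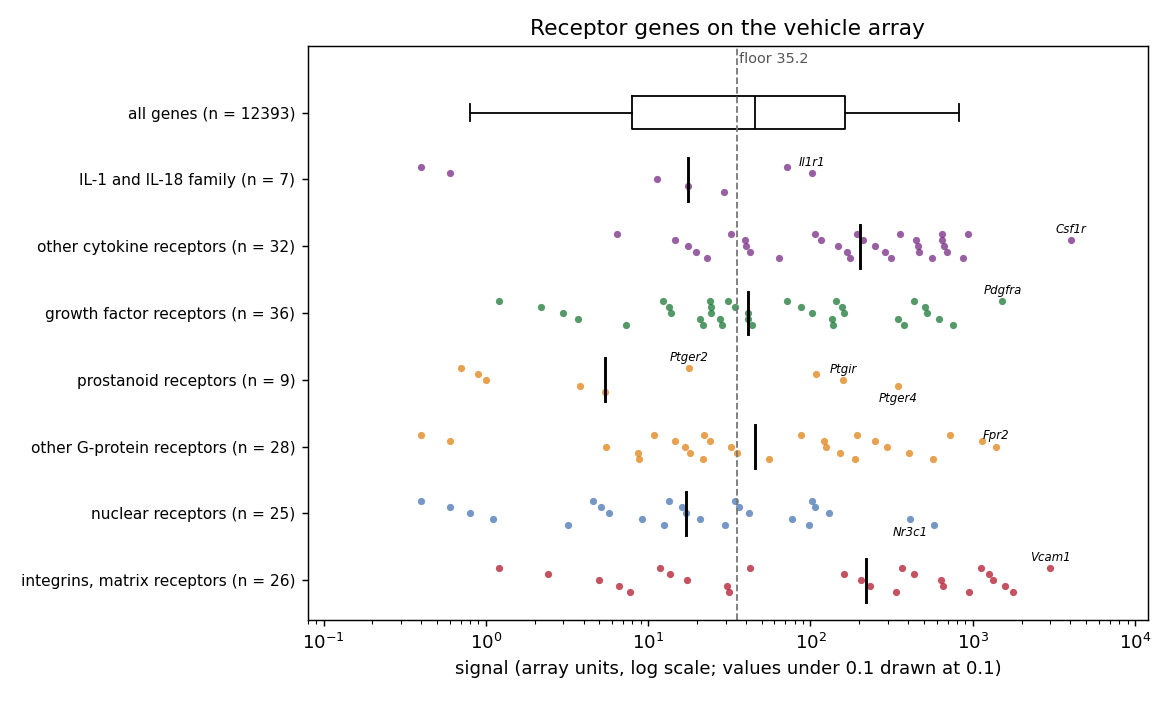
Points are receptor genes by class, placed by signal on a log axis, with a black bar at the class median and a dashed line at the floor of 35.2. The integrin class also holds Vcam1 and Icam1, genes of integrin ligands. The box for all genes spans the 25th to 75th percentile and its whiskers the 5th to 95th. Of the classes drawn, the prostanoid receptors have the lowest median, 5.4, with Ptger4 at 346 and Ptgir at 159 above the floor.

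Of 28 other G-protein receptors and their partners, 14 were above the floor, near the 54.2% of all genes. The formyl peptide receptor gene Fpr2 was at 1388, the complement receptor gene C3ar1 at 1140, the thrombin receptor gene F2r at 723, the UDP receptor gene P2ry6 at 567, the lysophosphatidic acid receptor gene Lpar1 at 406 and Calcrl at 298. The partners that give Calcrl its ligand choice, Ramp2 and Ramp3, were at 14.6 and 22.0 and Ramp1 at 8.6. Bdkrb1, Bdkrb2, Ccr3, Ccr6 and Ccr7 were not above the floor either, at 32.3, 8.8, 21.9, 0.4 and 0.6. Nuclear receptors were above it in 9 of 25 cases. The clock repressor gene Nr1d2 was at 575, the glucocorticoid receptor gene Nr3c1 at 411, Rxrb at 130, Rarg at 106, Thra at 103 and Rora at 98.6. The sex steroid receptor genes Esr1 and Esr2 read 1.1 and 0.8.

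Ligand and receptor genes were then read in pairs. Of 45 pairs, 38 had both genes measured, and in 22 of them both were above the floor. The pairs were picked by hand, so the count is a description. The 54.2% of all genes above the floor is a share of single genes, not of pairs, and is no background for it. Csf1 at 1385 and Csf1r at 4015 were the ligand and receptor of macrophage survival. For the PDGFs, Pdgfa, Pdgfc and Pdgfb were at 85.1, 102 and 273 beside Pdgfra and Pdgfrb at 1524 and 751. Gas6 was at 1143 with Axl at 522, Cxcl12 at 2835 with Cxcr4 at 125 and Ackr3 at 193, and Il1b at 894 with Il1r1 at 102. The ligand alone was above the floor in 9 pairs. Among these, Ccl2 was at 4200 with Ccr2 at 16.9, Hgf at 80.0 with Met at 13.5, Fgf7 at 997 with Fgfr2 at 31.1, and Vegfa at 149 with Kdr at 7.3 and Flt1 at 34.5. The receptor alone was above it in 7 pairs. Among these, Csf2 was at 1.6 with Csf2ra at 248 and Csf2rb at 39.4, the RANKL gene Tnfsf11 at 10.9 with Tnfrsf11a at 64.4, and the complement C5 gene Hc at 1.2 with C5ar1 at 151.

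**Figure D4:**
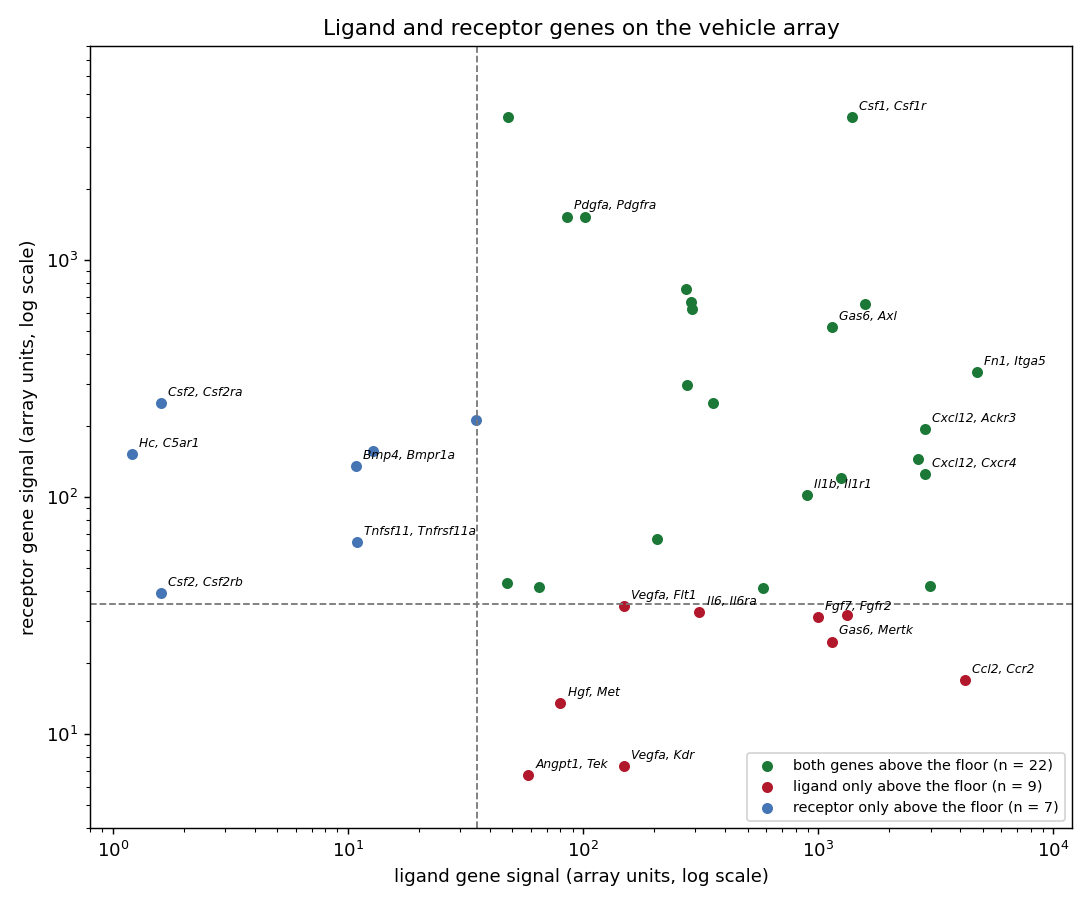
Each point is a ligand and receptor gene pair, with the ligand's signal on the horizontal and the receptor's on the vertical log axis and dashed lines at the floor of 35.2. In 22 of 38 pairs both genes lie above the floor, in 9 the ligand alone, such as Ccl2, and in 7 the receptor alone, such as Csf2ra.

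Interferon-response genes were above the floor without any added cytokine in 29 of 30 cases, against 54.2% of all genes. The list had a median signal of 977 and 15 genes at 1000 or more. Beside Rsad2 and Ifit3, the membrane restriction factor gene Ifitm3 was at 4494, Ifit1 at 3110, Ifit2 at 3020 and the immunity GTPase gene Iigp1 at 2703. The lowest was Ifitm1 at 13.3. The interferon gene Ifnb1 itself read 12.7 and Ifng 0.5, neither above the floor, while the receptor chain genes Ifnar1 and Ifnar2 were at 563 and 650. The interferon-induced chemokine genes Cxcl10, Cxcl11 and Cxcl9 were at 3478, 1360 and 1168.

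Among the promoter elements through which interferons act is one whose core is GAAA, 2 free bases and GAAA again. It reads TTTC, 2 free bases and TTTC on the other strand. The RefSeq windows of GRCm38.p6, from 250 bases before to 50 after a gene's start, were searched for it on both strands. Windows were given for 24 of the 30 interferon-response genes, and 13 of their 28 windows held the core, or 46.4%. It was in 3.44% of all 32851 windows and in 3.37% of those of genes above the floor. Some other lists exceeded these shares, with 14.8% for lysosome and phagocytosis genes, 12.5% for innate sensors and 11.1% for macrophage markers. Several lists had none, among them collagen chains (22 windows) and fibroblast identity genes (11 windows), too few to show absence. The interferon-response list is of genes known for this response, so its share describes the list and is no finding about this dish. The stretches below are from 4 genes that were bright in the dish, of which Cxcl10 is from the chemokine list. They are printed 5′ to 3′ on the gene's strand, with each match to the core in capitals and 20 bases on either side.

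Rsad2 (chr12:26456543-26456592, minus strand): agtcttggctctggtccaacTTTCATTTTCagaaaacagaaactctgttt

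Ifit3 (chr19:34583353-34583436, plus strand): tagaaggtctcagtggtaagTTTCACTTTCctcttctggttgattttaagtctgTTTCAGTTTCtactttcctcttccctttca

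Ifit1 (chr19:34640765-34640833, plus strand): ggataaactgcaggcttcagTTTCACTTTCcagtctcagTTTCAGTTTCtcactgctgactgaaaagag

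Cxcl10 (chr5:92349073-92349122, minus strand): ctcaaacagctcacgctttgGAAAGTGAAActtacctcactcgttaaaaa

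Ifit3 and Ifit1 each hold 2 matches and Rsad2 and Cxcl10 hold 1. The match begins 120 bases before the start in Rsad2 and 213 in Cxcl10, and the first begins 156 bases before it in Ifit3 and 104 in Ifit1.

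Chemokine genes were above the floor in 21 of 30 cases, against 54.2% of all genes. Their median was 634. The monocyte attractant gene Ccl2 led at 4200. The T-cell attractant gene Ccl5 was at 2933, Ccl9 at 2860, and the homing chemokine genes Cxcl12 and Cxcl14 at 2835 and 2106. The neutrophil attractant genes Cxcl2, Cxcl1 and Cxcl5 were at 1083, 653 and 615. Those not above the floor included Ccl11 at 9.0, Ccl17 at 9.8, Ccl22 at 17.0, Ccl24 at 2.7 and Ccl25 at 17.4.

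Cytokines and growth factors were above the floor in 30 of 56 cases, close to the 54.2% of all genes, with a median of 38.2. Progranulin, Grn, was at 3540, Mif at 1953 and the epithelial growth factor gene Fgf7 at 997. The inflammatory cytokine genes Il1b, Il6 and Tnf were at 894, 312 and 287. Of the T-cell cytokine genes Il2, Il4, Il5, Il13, Il17a, Ifng and Lta none was above the floor, with a highest signal of 11.0. Bmp2 and Bmp4 read 4.9 and 10.8, Csf3 3.7 and Fgf10 8.5.

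Innate sensors and their adaptors were above the floor in 21 of 25 cases, against 54.2% of all genes. The C-type lectin gene Clec4e was at 3244, the RNA sensor gene Ifih1 at 2041, the Toll-like receptor gene Tlr2 at 1817, the caspase gene Casp1 at 840 and Clec4n at 828. Of 8 Toll-like receptors 6 were above the floor. The LPS receptor gene Tlr4 was at 106 and its partner Ly96 at 169, while the flagellin receptor gene Tlr5 was at 1.8, the DNA receptor gene Tlr9 at 8.8, and Aim2 and Naip5 at 14.8 and 12.6. Complement genes were above it in 15 of 20 cases. C1qa and C1qc were at 2340 and 1946, the C1 inhibitor gene Serping1 at 1490, properdin, Cfp, at 406 and factor B, Cfb, at 380. The terminal pathway genes C6 and C9 were not, at 0.8 and 3.7, nor were Cfi at 12.9 and Mbl2 at 1.2.

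Antigen presentation split by class, where 54.2% of all genes were above the floor. All 15 measured genes of this list other than the class II H2 genes and Ciita were above the floor. They were led by B2m, by H2-K1 at 4323 and by H2-D1 at 4039. The peptide-loading gene Tapbp was at 1696 and the immunoproteasome genes Psmb10 and Psmb8 at 1445 and 1062. None of the 6 class II genes was, with H2-DMa at 17.8, H2-Eb1 at 12.9, H2-Aa at 11.2, the class II activator gene Ciita at 9.0, H2-Ab1 at 4.5 and H2-Ea at 4.1. H2-Ea has no product in several mouse strains. The invariant chain gene Cd74 belongs to the class II pathway but was counted among the 15, just above the floor at 40.3. Cd80 was at 41.3 and Tap1 at 483, each by 1 of 4 probe sets. H2 genes are close relatives, and 4 of the 9 probe sets of H2-D1 were above the floor, so their signals may be shared.

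**Figure D5:**
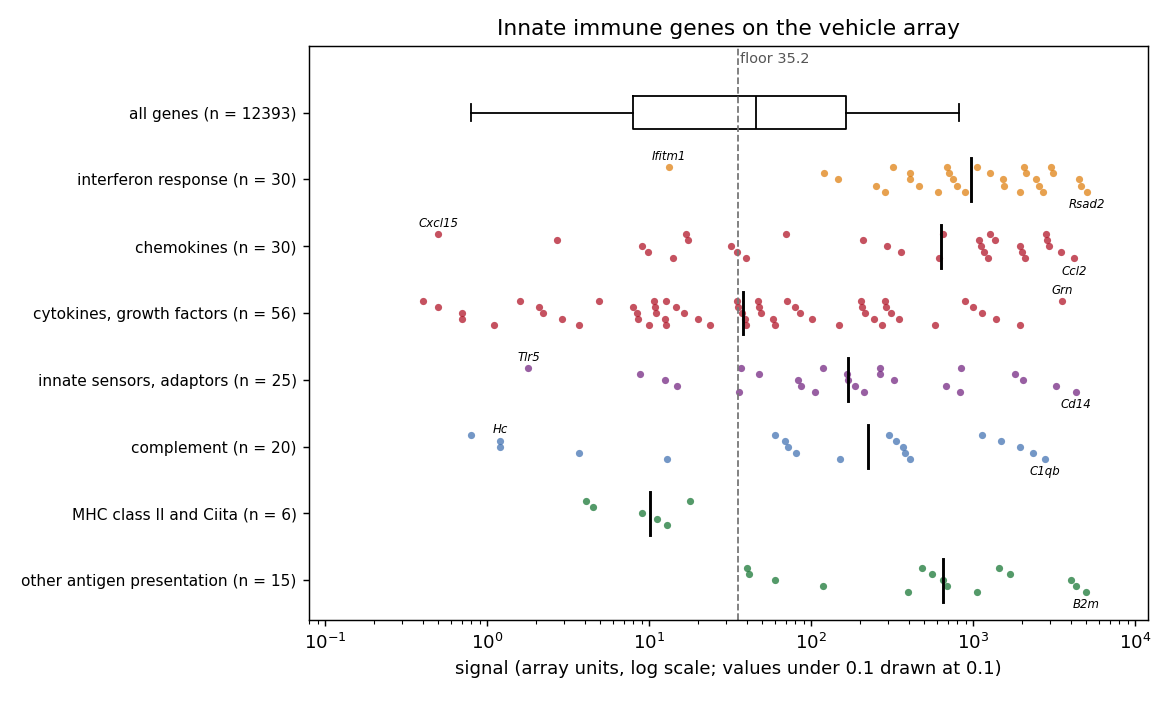
Points are innate immune genes by list, placed by signal on a log axis, with a black bar at the list median and a dashed line at the floor of 35.2. The box for all genes spans the 25th to 75th percentile and its whiskers the 5th to 95th. Of 30 interferon-response genes 29 lie right of the floor, and the 6 genes of MHC class II and Ciita lie left of it.

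Lysosome and phagocytosis genes were above the floor in 26 of 28 cases, against 54.2% of all genes. Their median was 1690. The sterol carrier gene Npc2 was at 3130 and prosaposin, Psap, at 2717, and the apolipoprotein genes Apoc1 and Apoc2 were at 3.4 and 7.9. Genes for oxidant defence and metal handling were above it in 24 of 25 cases. The metallothionein genes Mt2 and Mt1 were at 3285 and 3230, Mt1 by 1 of 2 probe sets. Mitochondrial superoxide dismutase, Sod2, was at 2796, the acute-phase gene Saa3 at 2396 and Gpx1 at 1934. The neural metallothionein gene Mt3 was at 0.7.

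Cell division genes were measured in a culture held in low serum. Of 24 genes of S phase and mitosis, 17 were above the floor, against 54.2% of all genes. The median signal of the 24 was 54.2, near the median of 45.6 over all genes. Some of the 17 were just above the floor, such as Aurka at 38.7, Mcm2 at 38.8 and Mcm5 at 42.1. The replication clamp gene Pcna was at 1656, Mcm7 at 240 and Rrm1 at 183. The kinase gene Cdk1 read 125, Top2a 106 by 1 of 2 probe sets, and the proliferation marker gene Mki67 56.3. Not above the floor were Aurkb at 17.6, Bub1b at 15.3, Ccne1 and Ccne2 at 19.3 and 22.6 and Plk1 at 29.6. The cell cycle inhibitor gene Cdkn1a was at 1939, Cdkn2b at 441 and the cyclin genes Ccnd2 and Ccnd1 at 719 and 472.

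Immediate-early and stress genes were above the floor in 25 of 28 cases, against 54.2% of all genes. The chaperone genes Hspa8 and Hspa5 were at 4398 and 3014. Fos was at 1826, the phosphatase gene Dusp1 at 1162 and Jun at 656, while Fosb, Fosl2 and Egr3 were at 0.4, 31.2 and 18.1. The orphan receptor genes Nr4a1, Nr4a2 and Nr4a3 were not above the floor, at 34.1, 17.2 and 5.7. Among 37 transcription factors of fibroblasts and macrophages, 28 were above it. Cebpb was at 1265, Spi1 at 801, Mitf at 776, Id2 at 648, Bach1 at 541 by 1 of 2 probe sets, and the NF-κB subunit gene Rela at 464. Foxc2, Foxf1, Maf, Osr1 and Osr2 were at 26, 2.4, 26, 25.8 and 10.5.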

How the data were processed

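The deposited values are linear signal intensity values, 1 per probe set and array. Per the labels' protocols, labelling and hybridisation followed Affymetrix standards. Summary method, background correction and scaling are not stated in the labels, and no detection p-value was used. The number of arrays limits the precision.

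Names came from the platform annotation, an old table that lists 21084 of the 22690 probe sets, which leaves 1606 without a name here. Probe sets of several genes (691) were not used. The 64 control probe sets, 13 of which name 1 gene, were left out of gene values. RefSeq (GRCm38.p6) changed 0 symbols. The other probe sets gave 12393 genes, each at its brightest probe set.

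Members and lists were chosen with earlier results of these data known. Of 1039 list entries in 39 lists, 925 were measured. The other 114 are not analysed here. The gene-level step was tested on simulated data. Named are the 30 brightest genes, in each list up to 6 of the brightest and up to 5 not above the floor in alphabetical order, all members of the IL-1 receptor, prostanoid, sex and limb lists, and genes of pairs. Other names, such as Adgre1, Thy1 and Pecam1, were added after values were seen. Il1rn and Edn1 encode ligands and were then taken off the receptor lists. Vcam1 and Icam1 also encode ligands and were kept. Python 3.11.15, pandas 2.3.3 and numpy 2.4.6 were used. Results were repeated under 5 other choices of floor or probe sets.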

Additional observations from a re-analysis of the deposited data

How the results depend on the processing

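With 1 array there is no replicate to leave out. No paired analysis was possible because the values come from no test. Counts of genes above the floor were repeated with the floor at the 40th percentile (18.2), at the 65th (80.9) and at the 90th percentile of the tissue-restricted genes (16.9), with the median of a gene's probe sets, and without _x_at and _s_at probe sets, which can bind several transcripts. Of 45 such counts, 37 stayed within 1.5 times the value reported. The markers of other lineages above the floor moved from 11 of 119 to 21 with the 40th percentile, 6 with the 65th and 22 with the tissue-restricted level. The tissue-restricted genes moved from 1 of 50 to 4, 0 and 5, the last fixed by construction, and to 0 with the median of probe sets and 0 without _x_at and _s_at probe sets. The pairs were given these alternatives after the values were seen. The median signals of the 39 lists shifted by -2.88 to 0 on the log2 scale with the median of probe sets, and the antigen presentation list then had a median log2 signal of 5.76. Genes near the floor, such as Pitx1, Cd207 and Nr4a1, change sides with small moves of it.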

Other observations

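Gene families picked by symbol, after the values were seen, showed the range of the dish outside the lists. Of all genes, 54.2% were above the floor. All 33 subunit genes of respiratory complex I were above the floor, with a median signal of 518, and 37 of 39 proteasome subunit genes, with a median of 623. V-type ATPase subunits, which acidify lysosomes, were above it in 14 of 19 cases, led by Atp6v1g1 at 1307. None of 31 olfactory receptor genes was, and the brightest, Olfr1508, read 14.3. Of 40 keratin genes 1 was above the floor, Krt81 at 47.0, and of 31 Hox genes 3, adding Hoxc6 at 58.9.

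Few cytochrome P450 genes were above the floor, 5 of 63 against 54.2% of all genes, but the brightest were far above it. Cyp1b1, an enzyme that oxidises steroids and aromatic compounds, was at 2858 and the oxysterol hydroxylase gene Cyp7b1 at 768. Of 30 serpins 9 were above the floor, led by Serpinf1, which encodes the antiangiogenic factor PEDF, at 3211. Annexin genes were above it in 8 of 11 cases, with Anxa1 at 4214, and the guanylate-binding protein genes in 5 of 6, with Gbp2 at 2443.

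Promoter windows differed in their content of CpG, the dinucleotide that marks broadly active promoters. The observed over expected CpG ratio had a median of 0.779 in the windows of genes above the floor and 0.466 in those of genes not above it. It was 0.201 for macrophage markers, 0.300 for interferon-response genes, 0.376 for fibroblast identity genes and 0.272 for tissue-restricted genes. The TATAAA letters were in 7.54% of windows of genes above the floor, in 12.8% of those not above it and in 19.2% of those of the 100 brightest genes. These shares describe the windows given and were not tested.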
